A study of Saccharomyces cerevisiae with 151 samples.

Results

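RNA of wild-type Saccharomyces cerevisiae after 120 min with 3-aminotriazole (3AT) was compared with RNA of the same strain after 60 min, a comparison that describes the later part of the response. Arrays were taken by their titles, which gave 3 arrays at 120 min and 3 at 60 min of the 151 in the series. The wild type is BY4741, a haploid MATa laboratory strain that lacks LEU2, MET17 and URA3 and part of HIS3. At an OD600 of 0.5, cultures held at 28 °C in synthetic complete medium received 100 mM 3AT and gave 200 ml of cells at each of 8 times (0, 10, 20, 30, 45, 60, 90 and 120 min). By the labels both groups had 3AT and differed in time alone, so any effect of the age or density of the culture cannot be told apart from that of longer exposure. Deletion strains of the transcription factor genes GCN4, LEU3 and GAT1 (gcn4, leu3 and gat1), all made in BY4741 and treated alike, were sampled at the same times and are used below beside the wild type. Nothing in the labels ties replicate arrays to separate cultures, and the p-values may thus reflect technical spread between these samples alone.

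3AT inhibits the histidine biosynthetic enzyme made by HIS3, and also inhibits catalase. Cells that run short of an amino acid make more of the activator Gcn4, which raises amino acid biosynthesis genes, whereas rich nitrogen sources keep permease and breakdown genes low through the GATA factors, Gat1 among them. Other regulators set the genes for metals and sulfur: Aft1 and its relative answer to iron, Zap1 to zinc, and Met4 with Met31 or Met32 to sulfur amino acids. Because MET17 is missing, BY4741 cannot build homocysteine from sulfide and needs methionine from the medium.

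Signals are array intensities rescaled to a common trimmed mean of 500, and changes are differences of log2(signal + 16), 120 minus 60 min, with their SE from limma's moderated test over the 24 wild-type arrays. The pseudocount understates the changes of genes with low signal. The regulators and strain markers were read on each array. GCN4 read 6035 to 6404 at 120 min and 6612 to 7183 at 60 min, and LEU3, GAT1 and MET31 were all above 60. Of the genes the strain lacks, URA3 read at most 7.40, LEU2 22.0 to 40.4 at 120 min and 10.6 to 48.3 at 60 min, and MET17 8.26 to 25.6 and 3.01 to 29.8; LEU2 and MET17 were above the floor for low signal on 4 of the 6 arrays. Of 7 a-specific genes, MFA1, MFA2, STE2 and BAR1 read 612 or more on all 6 arrays, STE6 and AGA2 157 to 446, and ASG7 7.74 to 49.8, within the range of the 4 alpha-specific genes (6.10 to 132). Replicates correlated over all genes with Pearson's r of 0.945 to 0.968 at 120 min and 0.947 to 0.981 at 60 min. Replicate 3 at every wild-type time held signal on the added poly-A control probe sets (median 256 at 120 min and 154 at 60 min), and replicates 1 and 2 held little (at most 26.2 at 120 min and 24.8 at 60 min). The ratio of the 3' to the 5' actin probe sets was 1.28 to 1.77 at 120 min and 0.994 to 1.42 at 60 min, and its part in the results below was not tested.

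Few genes passed the test between 120 and 60 min. Of 5514 genes tested, 353 (6.4%) had an unadjusted p under 0.05, and 25 were called at a limma adjusted p under 0.05 (0.453% of those tested), of which 9 rose (0.163%) and 16 fell (0.29%). The rises were OLE1, IZH4, ODC2, ANB1, AGP1, ZRT1, ARG1, ARG4 and MNN1. The falls were FIT2, FUI1, MDH2, FUR4, FIT3, MHT1, MET6, MET32, MMP1, SNO1, DDR48, ALT1, YKR045C, MCH4, SSY1 and SNZ1. Rises ran from 0.92 to 2.54 and falls from -0.97 to -3.02, while the median change of all genes was -0.01. All 25 had 3 arrays at 120 min that did not overlap the 3 at 60 min, a property that 4.55% of all genes had in the upward and 6.57% in the downward direction. The genes were called on these same arrays, which favours such a gap, so it is no separate support for the calls.

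**Figure D1:**
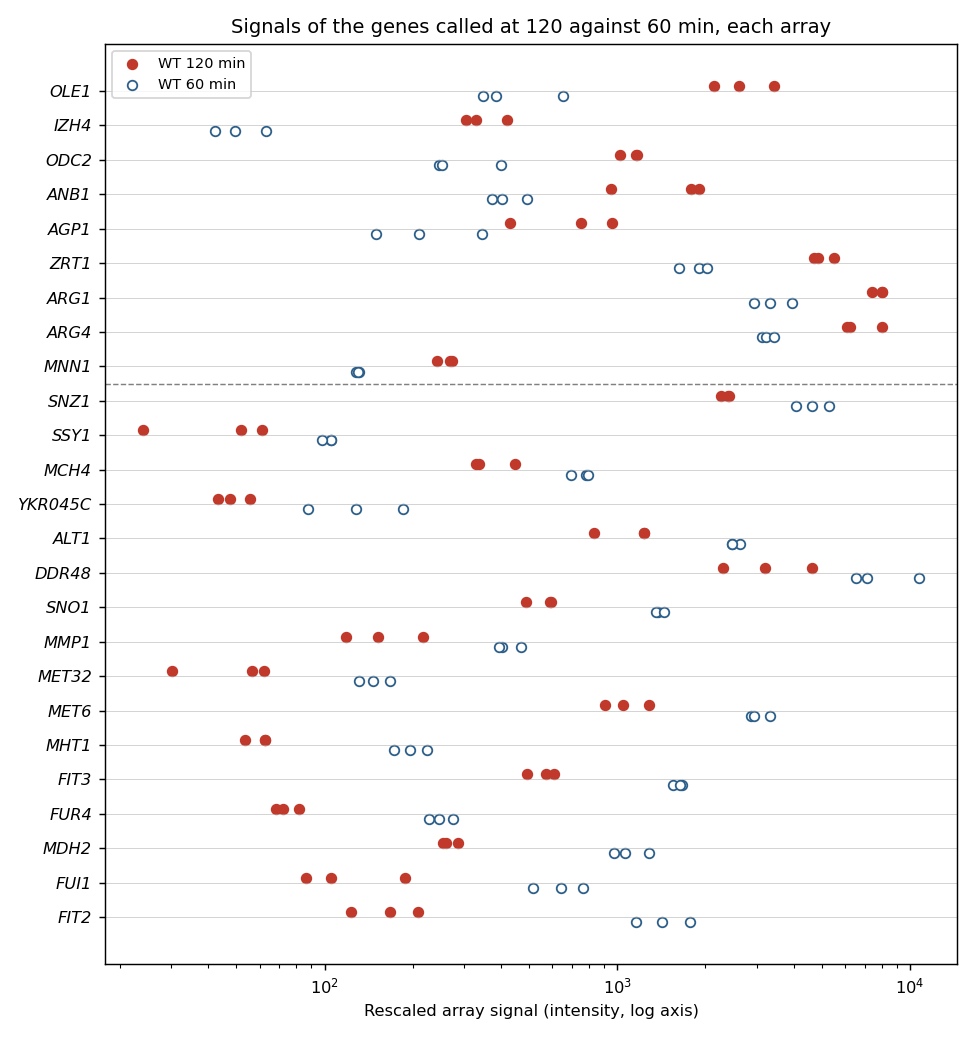
Rescaled signal (log axis) of the 25 called genes on each array, WT 120 min filled and WT 60 min open, ordered from the largest rise (top) to the largest fall, with a dashed line between rises and falls. The 120 min points lie to the right of all 60 min points above the line and to the left of them below it.

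The number of calls depended on the arrays that set the spread and on single arrays. When all 7 strains with replicates shared the estimate of the spread, 2 genes were called, FUI1 and FUR4; with the 4 strains sampled to 120 min, 7 were called, 5 of them among the 25 (FIT2, FUI1, FIT3, ODC2 and FUR4). Without WT 60 min replicate 1, 2 or 3 the counts were 12, 11 and 12. MDH2, FIT2, ZRT1, OLE1, FUI1, IZH4, FIT3, SNO1 and ARG4 stayed called whichever of the 6 arrays was left out.

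Lipid and hypoxic genes held the largest rise. OLE1, which encodes the fatty acid desaturase of yeast, read 2142, 2595 and 3417 at 120 min, against 349, 386 and 651 at 60 min. It rose by 2.54 ± 0.39 (SE, limma adjusted p = 0.0015), and its mean signal was 5.88 times higher at 120 min. ANB1, the form of translation factor eIF5A that cells make when oxygen or heme is short, read 1783, 954 and 1895 at 120 min, against 491, 373 and 405 at 60 min. It rose by 1.78 ± 0.40 (adjusted p = 0.0474). The 120 min arrays lay above the 60 min arrays for both genes, with the second 120 min array the lowest for ANB1. ANB1 was called in 1 of the 6 fits that left out an array (without WT 120 min replicate 2) and its adjusted p reached 0.206 without WT 120 min replicate 3. ANB1 shares most of its sequence with HYP2, the form made in air, and signal from HYP2 on its probe set cannot be told apart here.

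The genes around them moved less. Of 26 genes of ergosterol synthesis with OLE1, 1 (OLE1) rose and none fell, 21 were higher and 5 lower, and the median was 0.20. After OLE1 the largest changes in it were ERG28 (0.93 ± 0.24, adjusted p = 0.108), which holds the sterol enzymes together, HMG2 (0.61 ± 0.39), an HMG-CoA reductase, and ERG20 (0.51 ± 0.24), farnesyl diphosphate synthase. Among 8 fatty acid synthesis genes limma called 0, with 3 at an unadjusted p under 0.05, all higher, and a median of 0.58. ELO1, a fatty acid elongase, changed by 1.06 ± 0.28 (adjusted p = 0.116), the fatty acid synthase genes FAS1 and FAS2 by 1.0 ± 0.29 and 0.82 ± 0.60, and the acyl-CoA synthetase gene FAA4 by 0.77 ± 0.30. Of 12 hypoxic and heme-repressed genes 1 (ANB1) rose, 7 were higher and 5 lower, and the median was 0.16 (0.09 without WT 120 min replicate 2 and 0.30 without WT 120 min replicate 3). TIR1, a cell wall protein, changed by 1.05 ± 0.39, AAC3, an ADP/ATP carrier, by 0.85 ± 0.22, and HEM13, of heme synthesis, by 0.83 ± 0.25 (adjusted p = 0.516, 0.111 and 0.263).

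Most zinc regulon genes were higher at 120 min, and 2 of 12 passed the test. IZH4, a membrane protein of a family linked to zinc balance, read 420, 305 and 330 at 120 min, against 63.3, 42.2 and 49.3 at 60 min. It rose by 2.44 ± 0.42 (limma adjusted p = 0.00522), with a mean signal 6.82 times higher, and its 60 min signals lay close above the floor below which a signal counts as low (20.0 to 29.1 on those arrays). ZRT1, the high-affinity zinc transporter, read 4830, 5485 and 4683 at 120 min, against 1902, 1630 and 2026 at 60 min, and rose by 1.43 ± 0.21 (adjusted p = 0.00128). Of 12 zinc regulon genes, 2 rose and none fell, 10 were higher and 2 lower (48.8% and 51.2% of all genes), and the median change was 0.54, against -0.01 over all genes. FET4, a low-affinity metal transporter, read 963, 875 and 1030 at 120 min, against 325, 338 and 563 at 60 min, with a change of 1.24 ± 0.35 that did not pass (adjusted p = 0.146). Lower at 120 min were ZRC1, a vacuolar zinc transporter, with arrays that did not overlap (1311, 1101 and 1381 at 120 min, against 1585, 1706 and 1722 at 60 min; -0.40 ± 0.16, adjusted p = 0.625), and ZRG17, a zinc transporter of the secretory pathway (-0.53 ± 0.28, adjusted p = 0.818). The IZH family is 4 genes, some of them also in the zinc list. Beside IZH4, IZH1 and IZH2 had changes of 1.01 ± 0.34 and 0.95 ± 0.23 (adjusted p = 0.424 and 0.0716), and IZH3 had -0.09 ± 0.35.

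Arginine genes were higher at 120 min throughout the pathway. ARG1, argininosuccinate synthetase, read 7426, 8039 and 7997 at 120 min, against 2920, 3323 and 3952 at 60 min, and rose by 1.21 ± 0.22 (limma adjusted p = 0.00604). ARG4, which encodes argininosuccinate lyase, the next enzyme, read 6076, 8041 and 6232 at 120 min, against 3119, 3213 and 3437 at 60 min, and rose by 1.04 ± 0.18 (adjusted p = 0.00547). Without WT 60 min replicate 1 the adjusted p of ARG1 was 0.0618. All 8 arginine genes tested were higher, 2 of them passing, with a median of 0.98, and 6 of the 8 had arrays that did not overlap (4.55% of all genes). ARG3, ornithine carbamoyltransferase, read 695, 579 and 814 at 120 min, against 370, 344 and 170 at 60 min (1.25 ± 0.30, adjusted p = 0.0631). ARG7, a mitochondrial enzyme of ornithine synthesis, read 855, 766 and 1194 at 120 min, against 390, 403 and 471 at 60 min (1.10 ± 0.27, adjusted p = 0.0642).

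Histidine genes, whose pathway includes the HIS3 enzyme that 3AT inhibits, moved less. BY4741 lacks part of HIS3, and whether 3AT blocked the pathway in these cells was not tested. Of 7 tested, limma called 0, with 2 at an unadjusted p under 0.05, both higher, 6 were higher and 1 lower, and the median was 0.29. HIS1, the first enzyme of the pathway, read 7503, 8025 and 6473 at 120 min, against 5477, 5078 and 4025 at 60 min, a change of 0.60 ± 0.20 (adjusted p = 0.407). HIS5 and HIS2 had changes of 0.56 ± 0.18 and 0.45 ± 0.24. The probe set of HIS3 read 1991, 1253 and 1780 at 120 min, against 2005, 1882 and 2246 at 60 min (-0.31 ± 0.21), and whether it lies in the deleted part is not known here.

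Nitrogen-regulated permease genes were led by AGP1. AGP1, a broad-range amino acid permease, read 751, 431 and 962 at 120 min, against 211, 150 and 345 at 60 min. It rose by 1.54 ± 0.28 (limma adjusted p = 0.00724), but lost its call without WT 60 min replicate 1 or 2 or without WT 120 min replicate 3 (adjusted p = 0.0545, 0.0937 and 0.061). Of 12 nitrogen-repressed permeases 1 (AGP1) rose and none fell, 8 were higher and 4 lower, and the median was 0.58. GAP1, the general amino acid permease, read 493, 225 and 443 at 120 min, against 188, 122 and 166 at 60 min (1.15 ± 0.38, adjusted p = 0.351). OPT2, an oligopeptide transporter, and DUR3, of urea uptake, had changes of 0.87 ± 0.37 and 0.86 ± 0.33. All 11 nitrogen breakdown genes tested were higher, but by little (median 0.24). Limma called 0 of them, with 1 at an unadjusted p under 0.05, arginase CAR1 (0.82 ± 0.23, adjusted p = 0.146). The next largest changes there were in PUT1, of proline use (0.53 ± 0.33), and in DAL3 and DAL1, of allantoin use (0.39 ± 0.26 and 0.36 ± 0.45).

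The other rises were a mitochondrial carrier and a Golgi enzyme. ODC2, which carries oxodicarboxylates of lysine and glutamate metabolism across the mitochondrial membrane, read 1168, 1021 and 1158 at 120 min, against 400, 245 and 252 at 60 min. It rose by 1.88 ± 0.34 (limma adjusted p = 0.00604; 0.0538 and 0.0516 without WT 60 min replicate 2 or 3). MNN1, a mannosyltransferase of the Golgi, read 272, 268 and 242 at 120 min, against 128, 131 and 131 at 60 min. It rose by 0.92 ± 0.21 (adjusted p = 0.0474), and its call was lost whichever array was left out (adjusted p up to 0.17).

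The largest fall was in iron capture. FIT2, a cell wall mannoprotein that holds siderophore iron, read 123, 167 and 208 at 120 min, against 1155, 1424 and 1777 at 60 min. It fell by 3.02 ± 0.37 on the log2 scale (limma adjusted p = 9.07e-05), with a mean signal 8.75 times higher at 60 min. FIT3, a protein of the same kind and its neighbour on the chromosome, read 491, 571 and 606 at 120 min, against 1554, 1661 and 1643 at 60 min, and fell by 1.52 ± 0.26 (adjusted p = 0.00522). Of 14 iron uptake genes, 2 fell and none rose, 10 were lower and 4 higher, and the median was -0.26. The multicopper oxidase gene FET3 and the enterobactin transporter gene ENB1 had changes of -0.84 ± 0.37 and -0.83 ± 0.28 that did not pass (adjusted p = 0.685 and 0.407). Of 7 copper uptake genes limma called 0, with 2 at an unadjusted p under 0.05, both higher. CTR1, the high-affinity copper transporter, read 838, 517 and 1161 at 120 min, against 393, 413 and 239 at 60 min (1.19 ± 0.28, adjusted p = 0.0616), and FRE1, a surface reductase for copper and iron, changed by 0.78 ± 0.30.

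Sulfur genes were lower at 120 min, with 4 calls that rested on small margins. MET6, methionine synthase, read 910, 1049 and 1287 at 120 min, against 2855, 2923 and 3315 at 60 min, and fell by 1.48 ± 0.33 (limma adjusted p = 0.0474). MHT1, which makes methionine from S-methylmethionine, read 62.4, 62.6 and 53.7 at 120 min, against 223, 196 and 172 at 60 min, and fell by 1.49 ± 0.33 (adjusted p = 0.0412). Its neighbour MMP1, the permease for S-methylmethionine, read 119, 152 and 218 at 120 min, against 403, 395 and 470 at 60 min, and fell by 1.33 ± 0.30 (adjusted p = 0.0474). MET32, a DNA-binding partner of Met4, read 30.1, 56.5 and 62.2 at 120 min, against 146, 132 and 167 at 60 min, and fell by 1.36 ± 0.26 (adjusted p = 0.0122). For all 4 genes the highest array at 120 min lay below the lowest at 60 min. MET6 and MHT1 lost their call whichever array was left out (adjusted p up to 0.165 and 0.173). MMP1 kept it only without WT 120 min replicate 3 (adjusted p otherwise up to 0.192). MET32 lost it without WT 60 min replicate 1 or 3 or without WT 120 min replicate 1 (adjusted p up to 0.0871).

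Genes that take up and reduce sulfate were lower without passing the test. Of 10 genes of sulfate uptake and assimilation limma called 0, with 7 at an unadjusted p under 0.05, all lower. In all 9 were lower and 1 higher, with a median of -1.09, and 7 had arrays that did not overlap (6.57% of all genes). MET3, ATP sulfurylase, read 163, 85.9 and 293 at 120 min, against 647, 568 and 465 at 60 min (-1.68 ± 0.45, adjusted p = 0.125). MET14, which encodes the kinase for the next step, read 927, 899 and 1276 at 120 min, against 4081, 3603 and 2288 at 60 min (-1.65 ± 0.39, adjusted p = 0.0574). The sulfate permease gene SUL2 and the siroheme gene MET8 had changes of -1.21 ± 0.33 and -1.19 ± 0.58, and MET22, the phosphatase that clears a by-product of the pathway, was the member higher at 120 min (0.31 ± 0.17). Of 16 genes of methionine synthesis, salvage and uptake, 3 fell and none rose, 14 were lower and 2 higher, and the median was -0.53 (-0.35 without WT 120 min replicate 2 and -0.74 without WT 120 min replicate 3). MET2, the homoserine acetyltransferase gene, had the largest change in that list (-1.50 ± 0.40, adjusted p = 0.123). Of 6 sulfur regulators 1 (MET32) fell, and MET28, MET30 and MET31 had changes of -0.70 ± 0.31, -0.25 ± 0.27 and 0.23 ± 0.23.

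**Figure D2:**
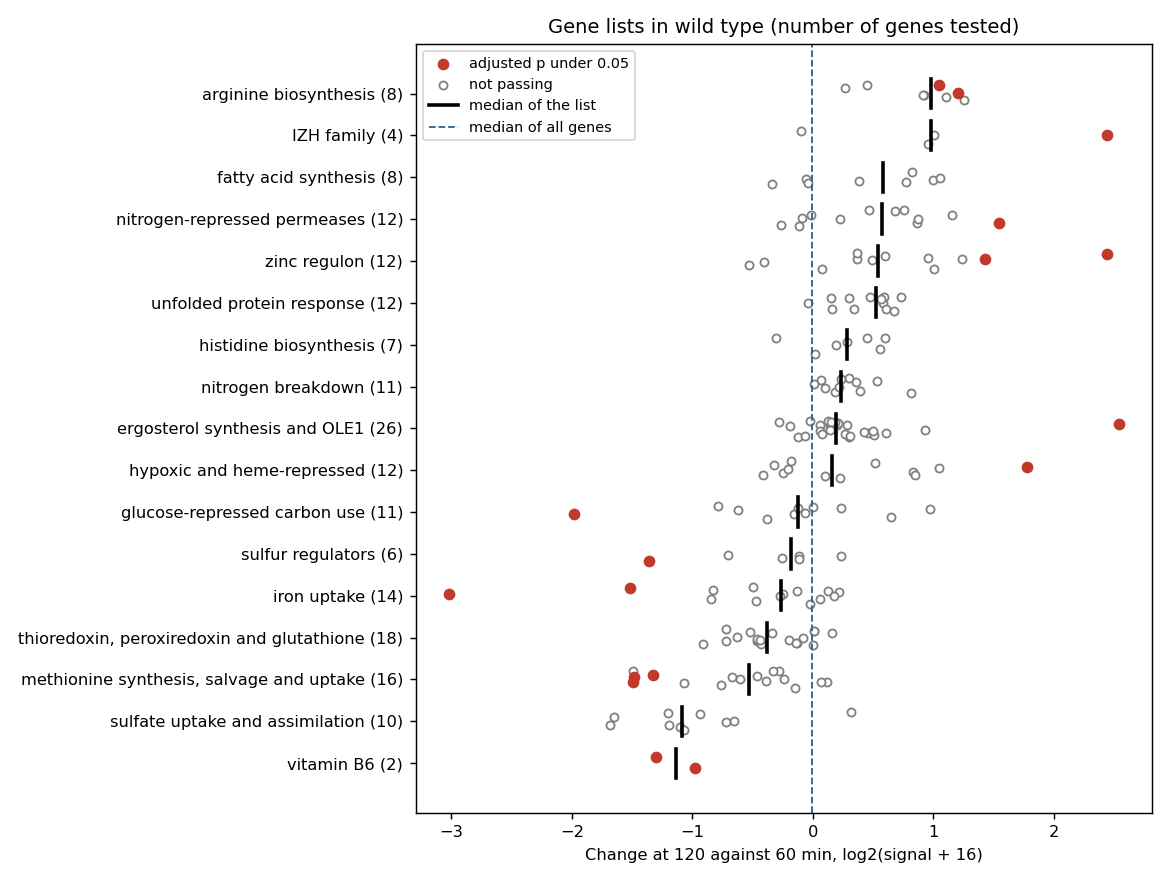
Change at 120 against 60 min on the log2(signal + 16) scale for each tested member of 17 gene lists, with the number tested in brackets; filled points passed the test, open points did not, black bars are list medians and the dashed line is the median of all genes. Arginine genes lie wholly to the right of the line and all but 1 of the sulfate genes to its left, while in the iron list FIT2 and FIT3 stand away from the rest.

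Pyrimidine permeases and vitamin B6 genes fell. FUI1, the uridine permease, read 105, 86.6 and 188 at 120 min, against 642, 513 and 765 at 60 min, and fell by 2.25 ± 0.35 (limma adjusted p = 0.00177). It was the gene that stayed called under all 23 alternatives run. FUR4, the uracil permease, read 68.2, 81.7 and 72.1 at 120 min, against 228, 246 and 275 at 60 min, and fell by 1.56 ± 0.30 (adjusted p = 0.00954; 0.0538 and 0.0666 without WT 60 min replicate 2 or 3). A list of 15 pyrimidine genes was added after these 2 had been seen. It held no other call, 11 members were lower and 4 higher, and the median was -0.12. URA1 and URA2, early enzymes of uridine synthesis, had changes of -0.85 ± 0.32 and -0.83 ± 0.23 (adjusted p = 0.53 and 0.138).

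SNO1 and SNZ1 make vitamin B6 together and lie side by side on the chromosome. SNO1 read 590, 488 and 594 at 120 min, against 1382, 1355 and 1444 at 60 min, and fell by 1.30 ± 0.23 (limma adjusted p = 0.00522). SNZ1 read 2410, 2253 and 2395 at 120 min, against 4068, 4627 and 5295 at 60 min, and fell by 0.97 ± 0.20 (adjusted p = 0.0174). SNZ1 lost its call without WT 60 min replicate 2 or 3 or without WT 120 min replicate 2 or 3 (adjusted p up to 0.128). In the RefSeq gene order (R64), 3 pairs of called genes are neighbours, FIT2 with FIT3, SNO1 with SNZ1 and MHT1 with MMP1, and in each pair both genes fell.

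MDH2 had the lowest p of all genes. MDH2, the cytosolic malate dehydrogenase that serves gluconeogenesis, read 254, 259 and 285 at 120 min, against 1062, 976 and 1286 at 60 min, and fell by 1.99 ± 0.23 (limma adjusted p = 6.83e-05). The other glucose-repressed genes did not pass: of 11 tested 1 (MDH2) fell and none rose, 7 were lower and 4 higher, and the median was -0.12, turning to 0.06 without WT 60 min replicate 1 and reaching -0.31 without WT 60 min replicate 3. JEN1, a lactate permease, SFC1, a mitochondrial succinate carrier, and FBP1, the gluconeogenic bisphosphatase, had changes of 0.97 ± 0.45, -0.79 ± 0.39 and 0.65 ± 0.35, with adjusted p of 0.729 or more.

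The remaining falls came from separate functions and lost their calls readily. DDR48, a stress protein linked to DNA damage, read 3186, 2298 and 4624 at 120 min, against 7129, 6512 and 10700 at 60 min, and fell by 1.29 ± 0.29 (limma adjusted p = 0.0474). ALT1, mitochondrial alanine transaminase, read 1230, 836 and 1233 at 120 min, against 2460, 2615 and 2457 at 60 min, and fell by 1.20 ± 0.25 (adjusted p = 0.0237). MCH4, which resembles monocarboxylate transporters, fell by 1.01 ± 0.20, YKR045C, a gene of unknown function, by 1.16 ± 0.24, and SSY1, the amino acid sensor of the plasma membrane, by 1.0 ± 0.23 (adjusted p = 0.0174, 0.0174 and 0.0474). SSY1 read 61.0, 52.0 and 24.1 at 120 min, against 106, 105 and 97.9 at 60 min, so that the third 120 min array was the lowest, and the change was -0.71 (adjusted p = 0.307) without it. Of the 6 fits that left out an array, ALT1 and YKR045C were called in 2 and DDR48, MCH4 and SSY1 in 1 (adjusted p up to 0.165, 0.173, 0.32, 0.109 and 0.307). Those highest values came without WT 120 min replicate 2 for DDR48 and ALT1, and without WT 60 min replicate 1 for MCH4 and YKR045C.

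The time course places these changes. In 24 of the 25 genes the mean at 90 min lay between those at 60 and 120 min, ANB1 being the exception. Choosing genes for a gap between 60 and 120 min favours such a position, and its share over all genes was not counted. The count is thus no separate support for the changes. The level reached at 120 min was set beside that before 3AT as a description, since genes were chosen by the 60 and 120 min arrays. Of the 9 rises, 5 (ARG4, ARG1, ODC2, AGP1 and MNN1) were low at 60 min and at 120 min stood between their 60 and 0 min means. ARG1 averaged 10500 ± 1500 at 0 min, 3399 ± 520 at 60 min, 4536 ± 791 at 90 min and 7821 ± 342 at 120 min (SD, n = 3 each). AGP1 averaged 1725 ± 54.1, 235 ± 99.7, 481 ± 74.5 and 715 ± 267 at those times, and its 120 min level was still below its 0 min level by 1.32 ± 0.28 on the log2 scale.

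OLE1, ZRT1 and ANB1 passed their 0 min means, and IZH4 moved away from its own. OLE1 averaged 1285 ± 82.7 at 0 min, 462 ± 165 at 60 min, 1192 ± 173 at 90 min and 2718 ± 646 at 120 min (SD, n = 3 each). ZRT1 averaged 3839 ± 505, 1853 ± 202, 4415 ± 596 and 4999 ± 427 at the same times. Its 120 min level was above that at 0 min by 0.38 ± 0.21 (SE, log2 scale), which is within 2 SE. IZH4 averaged 49.7 ± 35.3, 51.6 ± 10.7, 90.6 ± 35.9 and 352 ± 60.2, so most of its rise came after 90 min.

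Among the 16 falls, 4 were sulfur genes that were high at 60 min and stood between their 60 and 0 min means at 120 min (MET32, MHT1, MET6 and MMP1). MET6 averaged 703 ± 544 at 0 min, 3031 ± 248 at 60 min, 2941 ± 1218 at 90 min and 1082 ± 191 at 120 min (SD, n = 3 each). At 90 min its arrays read 2202, 2275 and 4347, with replicate 3 apart from the others. In the other 12 the 120 min level lay below that at 0 min, and in 11 of them the 60 min mean had been above it. YKR045C, the exception, averaged 147 ± 32.8 at 0 min, 134 ± 49.0 at 60 min and 48.8 ± 6.20 at 120 min, below 0 min by 1.32 ± 0.24 on the log2 scale. Some of these differences from 0 min were small. At 120 min FIT2, ALT1 and DDR48 lay within 2 SE of 0 min. At 60 min MDH2, SSY1 and MCH4 stood above 0 min by only 0.01, 0.02 and 0.13 on the log2 scale. FIT2 averaged 183 ± 46.3 at 0 min, 3897 ± 435 at 45 min, 1452 ± 312 at 60 min, 366 ± 155 at 90 min and 166 ± 42.7 at 120 min, where its difference from 0 min was -0.13 ± 0.37 (SE). FUI1, at 381 ± 33.6 at 0 min and 127 ± 53.9 at 120 min, and MDH2, at 1104 ± 209 and 266 ± 16.6, ended below it, by 1.54 ± 0.35 and 1.97 ± 0.23 on the log2 scale.

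**Figure D3:**
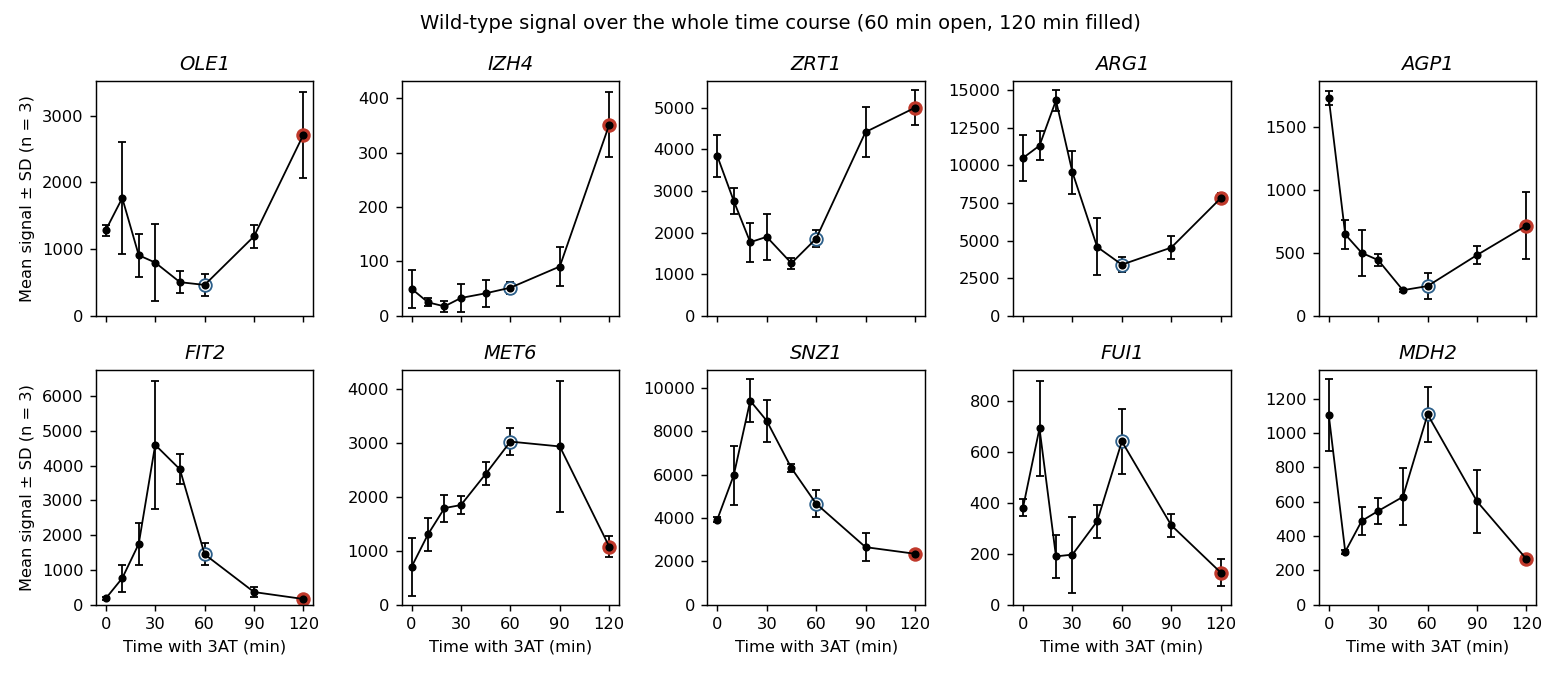
Mean signal ± SD (linear axis from 0, n = 3 arrays per time) of 10 called genes in the wild type over 0 to 120 min with 3AT, with 60 min ringed and 120 min filled. OLE1 and ZRT1 dip and recover, and ARG1 dips and recovers in part. IZH4 climbs after 90 min, FIT2 and SNZ1 peak before 60 min, and MET6, FUI1 and MDH2 fall after it.

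The same interval in the deletion strains used separate arrays. Between 120 and 60 min limma, in a fit of 4 strains over 5593 genes, called 16 rises (0.286%) and 43 falls (0.769%) in gcn4, 24 (0.429%) and 4 (0.0715%) in leu3, and 0 and 4 (0.0715%) in gat1. The gcn4 strain had 2 arrays at 60 min and 3 at 120 min, and leu3 and gat1 had 3 at each. Of the 16 wild-type falls, 15 had the same sign in gcn4, 11 in leu3 and 15 in gat1, while 53.5%, 46.7% and 57.3% of all genes were lower in those strains. Arrays did not overlap in that direction for 13 of the 16 in gcn4, 7 in leu3 and 9 in gat1 (17.1%, 5.31% and 10.2% of all genes). In the 4-strain fit the wild type itself called only FIT2, FIT3, FUI1 and FUR4 of the 16. FUI1, FUR4, SNZ1 and DDR48 also fell in gcn4, with changes of -1.77 ± 0.44, -1.45 ± 0.33, -1.41 ± 0.38 and -1.41 ± 0.35 (adjusted p = 0.0289, 0.0197, 0.0441 and 0.0289). FUI1 also fell in gat1, by 1.94 ± 0.39 (adjusted p = 0.0133). These calls rested on single arrays: without gcn4 60 min replicate 1 no fall was called in gcn4, and without gat1 120 min replicate 1 or 2 none in gat1. The number of genes called ran from 2 (that array left out) to 103 (without gcn4 120 min replicate 3) in gcn4. It ran from 1 (without leu3 60 min replicate 3 or 120 min replicate 2) to 72 (without leu3 60 min replicate 1) in leu3, and from 0 to 14 (without gat1 60 min replicate 3) in gat1. MDH2 had changes of -2.01 ± 0.66 in gcn4, -1.0 ± 0.59 in leu3 and -2.18 ± 0.59 in gat1, and MET6 had -1.60 ± 0.50, -1.67 ± 0.45 and -1.49 ± 0.45, none of which passed (adjusted p from 0.0564 to 0.678).

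Of the 9 wild-type rises, 5 had the same sign in gcn4, 8 in leu3 and 8 in gat1 (46.5%, 53.3% and 42.7% of all genes were higher), and none was called in any of them. In the same 4-strain fit the wild type itself called only ODC2 of these 9, so the missing calls do not show that the rises were lost. Rises whose arrays did not overlap in the upward direction numbered 1 in gcn4, 1 in leu3 and 4 in gat1 (10.9%, 6.37% and 5.26% of all genes). The wild-type SE below come from the fit of the 24 wild-type arrays, and those of the deletion strains from the 4-strain fit. For the wild-type change the median SE over all genes was 0.277 in the first fit and 0.319 in the second. ARG1 had changes of 1.21 ± 0.22 in the wild type, -0.00 ± 0.44 in gcn4, 1.20 ± 0.39 in leu3 and 1.64 ± 0.39 in gat1, and ARG4 had 1.04 ± 0.18, -0.03 ± 0.33, 0.56 ± 0.30 and 1.26 ± 0.30. AGP1 had 1.54 ± 0.28, -0.76 ± 0.43, 0.13 ± 0.38 and 1.45 ± 0.38 in the same order, and ODC2 had 1.88 ± 0.34, 0.05 ± 0.48, 0.24 ± 0.43 and 1.64 ± 0.43. The median of the arginine list was 0.98 in the wild type, -0.12 in gcn4, 0.84 in leu3 and 0.97 in gat1. IZH4 changed by 2.44 ± 0.42 in the wild type and by 0.27 ± 0.75, 0.33 ± 0.67 and 0.24 ± 0.67 in gcn4, leu3 and gat1.

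**Figure D4:**
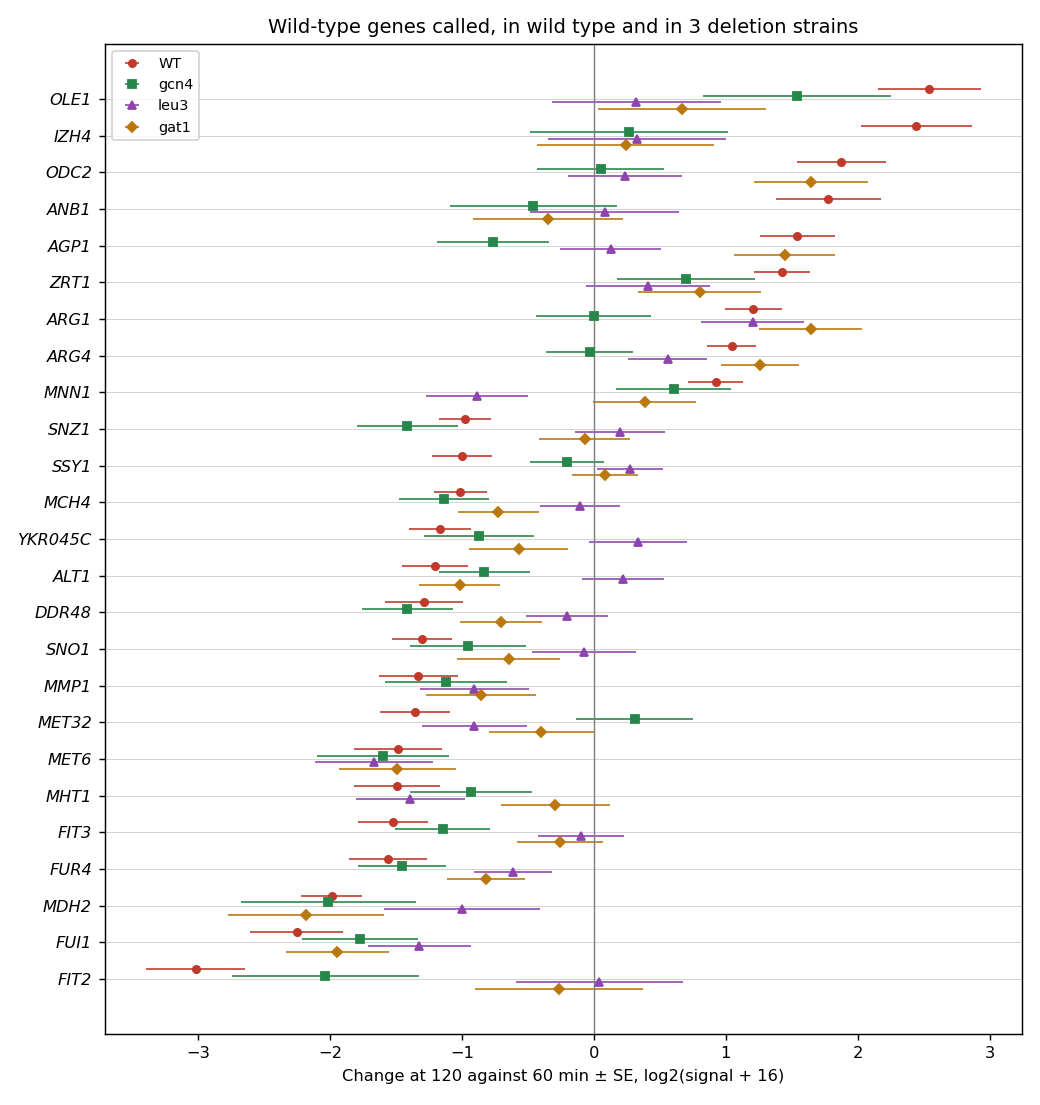
Change at 120 against 60 min ± SE (log2(signal + 16) scale) of the 25 genes called in the wild type, in WT, gcn4, leu3 and gat1. The MET6, MDH2 and FUI1 points of all 4 strains lie left of 0, whereas gcn4 lies at or left of 0 for ARG1, ARG4, AGP1 and ANB1.

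The difference itself was tested for every gene. Limma called 0 of 5593 genes for the wild type minus gcn4, minus leu3 or minus gat1 (293, 272 and 141 at an unadjusted p under 0.05, or 5.24%, 4.86% and 2.52%), so no change is shown to differ between wild type and a deletion strain in that fit. These 3 differences share the wild-type arrays. Among the 25 genes the lowest adjusted p was 0.375 for gcn4, for AGP1 (2.31 ± 0.57), and 0.511 for leu3, for SSY1 (-1.27 ± 0.35). Of the 25 genes, MNN1 and SSY1 had arrays that did not overlap in opposite directions in the wild type and leu3. In leu3 the arrays of 5.31% of all genes were lower and of 6.37% higher at 120 min without overlap. MNN1 read 272, 268 and 242 at 120 min and 128, 131 and 131 at 60 min in the wild type, and 148, 162 and 248 at 120 min and 427, 316 and 314 at 60 min in leu3 (difference 1.81 ± 0.55, adjusted p = 0.603).

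That count changed with the arrays used. Replicate 3 of gcn4 and of leu3 was deposited on another scale, and OLE1 in leu3 at 60 min read 3719, 3292 and 250, the last on that array. With arrays of the common scale only, limma called 16 differences from gcn4 and 12 from leu3. For gcn4 this leaves 2 arrays at 120 min and 1 at 60 min, which is assumed to vary like the other groups, and for leu3 2 at each. AGP1 was called in the difference from gcn4 (2.68 ± 0.47, adjusted p = 0.00111). OLE1 (3.78 ± 0.61), IZH4 (3.67 ± 0.79), MNN1 (2.09 ± 0.44), FIT2 (-3.56 ± 0.56), SNO1 (-2.10 ± 0.47), ALT1 (-1.93 ± 0.36) and SNZ1 (-1.88 ± 0.39) were called in that from leu3, with adjusted p from 0.000208 to 0.0226. These were 7 of the 12 calls for leu3, and the others were AIM7, BAT2, LYS21, MNS1 and SEC31. The genes called in the wild type, AGP1 among them, were chosen by their change on the same wild-type arrays, which favours a difference from another strain. Without leu3 60 min replicate 1, 2 or 3 the count for leu3 was 21, 7 and 2, and without WT 120 min replicate 1 it was 6. For gcn4 it was 7 without WT 120 min replicate 1 and 5 without gcn4 60 min replicate 3.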

How the data were processed

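The authors deposited array intensity on a linear scale; the submitters' processing notes name MAS5, with no version. Each of 151 arrays was rescaled to a 2% trimmed mean of 500; the 24 wild-type arrays had been deposited near it already (500.5 to 500.7), and 73 arrays of other strains had not. Of 9335 probe sets, 6504 name 1 gene in the platform annotation, and for the 315 genes with several the brightest unmarked one was used. A gene was kept if above the array's floor, the 20th percentile, in most arrays of a group (5514 of 5656). limma 3.58.1 in R 4.3.3 (lmFit, eBayes with intensity trend) was fitted on log2(signal + 16), with 1 coefficient per time and Benjamini-Hochberg adjustment over all genes; p-values are two-sided. The fit was also tested on simulated data. Strain contrasts came from 94 arrays. The members and the 58 gene lists were chosen with earlier results of these data known. Genes are named as the 15 largest rises and falls among calls without overlap, up to 4 largest changes of each list described, and strain checks; MET22, ZRC1 and ZRG17 were chosen after their values were seen. The number of arrays limits the precision.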

Additional observations from a re-analysis of the deposited data

Results flagged for a closer look

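A probe set outside the named genes passed the test. Among 2097 tested probe sets that name no single gene, 1 was called by limma between 120 and 60 min, a probe set with no entry in the annotation (5642_at). It read 1291, 1640 and 1697 at 120 min, against 596, 640 and 734 at 60 min, and rose by 1.21 ± 0.25 (SE, log2(signal + 16)). Its limma adjusted p was 0.035, from a fit and adjustment over the named genes and those probe sets together. An adjustment over those probe sets alone was not made.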

How the results depend on the processing

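In wild type 25 genes were called, and all kept their direction under those of the 23 alternatives in which they were tested. Many alternatives leave the size of a change as it was and alter only its spread. The 120 and 60 min arrays of these genes also do not overlap, so leaving out an array could not turn the direction. The kept direction is thus no separate support. Of 571 checks of a called gene under an alternative, 428 kept the call and 143 lost it, and FUI1 alone lost none. The count was 16 with the 6 arrays of 120 and 60 min alone, 2 with all arrays of the 7 strains, 7 with the 4 strains, 81 with array quality weights and 39 with the control class as a block (an alternative chosen after seeing the data), and 11 to 30 when an array was left out; the cause was not tested. With the replicate number as a block it was 42, all 25 among them. The labels do not say that a number marks a shared culture or day, and the deviations of same-numbered arrays of 120 and 60 min correlated at 0.246, -0.128 and 0.022, so the arrays were not taken as pairs, although replicate 3 alone carried the control signal. The other settings gave 17 to 31. In gcn4 (59 called) the counts were 182 with the replicate block, 17 with all strains and 219 with arrays of the common scale alone, and 2 to 103 when an array was left out. In leu3 (28) they were 68 with the block, 43 with all strains and 1 to 72 on leaving out an array, and in gat1 (4) 18 with the block, 8 with median centring and 0 to 14. Of the differences, wild type minus gcn4 (0) gave 1 with the block, 16 with the common scale and 0 to 7 on leaving out an array, wild type minus leu3 (0) gave 2, 12 and 0 to 21, and wild type minus gat1 0 under all settings run. Leaving out an array turned the sign of the median of the glucose-repressed, copper uptake and branched-chain lists (main -0.12, 0.10 and 0.09; lowest -0.31, -0.17 and -0.14; highest 0.06, 0.40 and 0.18) among the lists described. Signals near the floor of 16.3 to 29.1 limit what can be seen of low genes.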

Other observations

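Other gene groups moved by little between 120 and 60 min. Over all genes tested, 6.4% had an unadjusted p under 0.05 in the limma test. Of 31 genes of the respiratory chain and ATP synthase limma called 0, with 2 at an unadjusted p under 0.05, both lower, and the median change was -0.13, against -0.01 over all genes (-0.25 without WT 60 min replicate 3 and -0.22 without WT 120 min replicate 1). ATP16, a subunit of the ATP synthase, had -1.09 ± 0.31, and COR1, of the cytochrome bc complex, read 206, 141 and 273 at 120 min, against 552, 361 and 367 at 60 min (-1.01 ± 0.24, adjusted p = 0.0642). Of 18 thioredoxin, peroxiredoxin and glutathione genes it called 0 (5 at an unadjusted p under 0.05, all lower), with 14 lower, 4 higher and a median of -0.38, led by sulfiredoxin SRX1 (-0.91 ± 0.31). Of 12 genes of the unfolded protein response it called 0 (5 at an unadjusted p under 0.05, all higher), with 11 higher, 1 lower and a median of 0.52 (0.33 without WT 60 min replicate 1). There the chaperone gene KAR2 read 5988, 5431 and 7940 at 120 min, against 4357, 4744 and 3659 at 60 min (0.59 ± 0.26, adjusted p = 0.694).

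Growth genes were mostly lower at 120 min, by little. Of all genes tested, 51.2% were lower and 48.8% higher, and 6.4% had an unadjusted p under 0.05 in the limma test. Of 81 cytosolic ribosomal protein genes limma called 0 (4 at an unadjusted p under 0.05, all lower), with 64 lower, 17 higher and a median of -0.11 (-0.02 without WT 120 min replicate 3 and -0.25 without WT 120 min replicate 2), and of 40 ribosome biogenesis genes 0 (1, lower), with 31 lower, 9 higher and a median of -0.16 (-0.07 and -0.25 without WT 120 min replicate 2 or 3). The ribosomal protein gene RPS13 read 10000, 6549 and 4384 at 120 min, against 10950, 12830 and 10660 at 60 min (-0.79 ± 0.22, adjusted p = 0.137). Proteasome subunit genes were mostly higher, with 27 of 33 higher, a median of 0.19 (0.09 without WT 60 min replicate 2) and 0 called (0 at an unadjusted p under 0.05). Of 20 genes of the start of the cell cycle 0 were called (2 at an unadjusted p under 0.05, both lower), with 16 lower, 4 higher and a median of -0.26 (-0.16 without WT 120 min replicate 2). The largest change among them was in CDC9, DNA ligase, which read 355, 249 and 111 at 120 min, against 529, 603 and 536 at 60 min (-1.30 ± 0.30, adjusted p = 0.0574). Of 11 branched-chain amino acid genes 0 were called (1 at an unadjusted p under 0.05, lower), with BAT2, the cytosolic transaminase, reading 1295, 676 and 1979 at 120 min, against 3117, 3129 and 2991 at 60 min (-1.34 ± 0.34, adjusted p = 0.0892).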
